A study of Mus musculus with 20 samples.

Results

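The genes described here are 10 effectors and targets of the YAP/TEAD transcription system: the co-activators Yap1 and Wwtr1 (which encodes TAZ), the DNA-binding partner Tead1, and the target or feedback genes Ankrd1, Ajuba, Nt5e, Axl, Amotl2, F3 and Lats2. They were chosen by symbol, and each symbol matched 1 row among the 54532 genes of the deposited table. RNA sequencing covered 20 libraries from mice of C57BL/6 genotype, with 2 libraries in each of 10 groups. The groups were undamaged liver, liver at 6, 12, 24, 48 and 72 h and at 7, 14 and 21 d after partial hepatectomy (PHx, the removal of 70% of the liver), and hepatocyte organoids (Hep-Org), which are cultures of hepatocytes embedded in Matrigel and collected on passage. Per the growth protocol the liver libraries came from hepatocytes isolated fresh from the animals, and the labels give no purity, age or sex. Whether both libraries of a group stem from different animals or cultures is not stated, so a p-value here speaks only of the spread between these samples, possibly a technical one. The 2 Hep-Org libraries cannot be repeats of 1 sample, since Ddx3y, a Y-linked gene, was at 9.90 FPKM in replicate 1 and 0.00756 in replicate 2.

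The Hippo pathway is a kinase cascade in which MST kinases activate LATS kinases, which phosphorylate YAP and TAZ and keep them out of the nucleus. When they are not phosphorylated, YAP and TAZ enter the nucleus, bind TEAD factors on DNA and switch on genes of growth, cytoskeleton and matrix, among them inhibitors of YAP itself. In liver the pathway is known for its part in setting organ size and in the choice between hepatocyte and bile duct identity. Transcripts alone were measured here, so the phosphorylation and the location of the proteins are not known for these samples.

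TEAD factors bind a core of 6 bases, GGAATG, which reads CATTCC on the other strand. The promoter windows of RefSeq (GRCm38.p6; 250 bases before to 50 bases after each annotated start) were searched for both spellings, which do not overlap with each other. Windows were found for 9 of the 10 genes, all but Tead1. The 250 bases before the start are printed for 5 genes: Ankrd1 and Ajuba, the genes with the largest differences in Hep-Org and with 2 copies each, Wwtr1 and Amotl2 with 1 copy each, and Nt5e, which has none and whose levels followed another pattern. Letters run 5′ to 3′ on the strand of the gene, and capitals mark the core.

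Ankrd1 (chr19:36119845-36120094, minus strand): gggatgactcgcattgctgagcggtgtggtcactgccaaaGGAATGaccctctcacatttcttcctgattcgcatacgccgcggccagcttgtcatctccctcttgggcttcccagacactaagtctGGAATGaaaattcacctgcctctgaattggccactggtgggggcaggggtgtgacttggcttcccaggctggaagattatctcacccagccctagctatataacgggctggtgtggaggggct
Ajuba (chr14:54577662-54577911, minus strand): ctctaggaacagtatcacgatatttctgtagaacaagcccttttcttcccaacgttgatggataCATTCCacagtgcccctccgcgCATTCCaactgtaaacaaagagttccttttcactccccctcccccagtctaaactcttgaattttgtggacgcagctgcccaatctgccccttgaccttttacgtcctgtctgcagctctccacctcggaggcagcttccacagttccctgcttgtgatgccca
Wwtr1 (chr3:57575911-57576160, minus strand): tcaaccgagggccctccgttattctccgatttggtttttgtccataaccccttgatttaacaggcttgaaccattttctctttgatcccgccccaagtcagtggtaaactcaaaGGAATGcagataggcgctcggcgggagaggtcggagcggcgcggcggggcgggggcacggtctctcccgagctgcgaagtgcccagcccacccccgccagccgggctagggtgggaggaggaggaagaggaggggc
Amotl2 (chr9:102717554-102717803, plus strand): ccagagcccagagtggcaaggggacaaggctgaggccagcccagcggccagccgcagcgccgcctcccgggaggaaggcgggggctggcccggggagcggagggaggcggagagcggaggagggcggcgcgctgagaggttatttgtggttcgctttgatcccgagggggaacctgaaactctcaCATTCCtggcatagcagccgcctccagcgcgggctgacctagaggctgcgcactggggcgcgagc
Nt5e (chr9:88327359-88327608, plus strand): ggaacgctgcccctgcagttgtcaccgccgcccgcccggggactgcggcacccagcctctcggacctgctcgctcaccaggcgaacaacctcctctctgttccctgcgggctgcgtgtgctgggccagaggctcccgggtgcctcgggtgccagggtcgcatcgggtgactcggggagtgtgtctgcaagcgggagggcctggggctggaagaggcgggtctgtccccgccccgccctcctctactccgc

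The cores of Ankrd1 began at positions -210 and -123 from the start and both read GGAATG, whereas those of Ajuba began at -186 and -164 and both read CATTCC. Yap1 and Axl also had 1 core each, at positions -141 and -233, and Lats2 had 1 core that began at position 5 after its first annotated start. No core was found in the windows of Nt5e and F3. In all, 7 of 9 genes held the core, against 14.7% of the 32851 promoter windows in the table and 16.6% of the symbols. Of the other YAP/TEAD target genes with a window, 3 of 9 held it. A window with 2 or more copies made up 1.36% of the table. The presence of these letters is a description of the sequence and shows no binding.

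**Figure D1:**
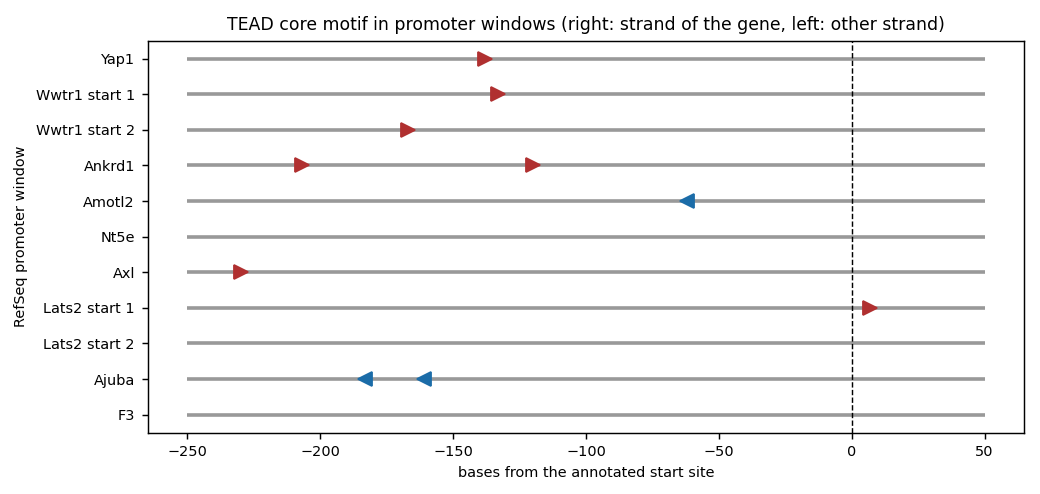
Positions of the TEAD core in the RefSeq promoter windows, in bases from the annotated start site on the horizontal axis, with 1 row per window and 2 windows each for Wwtr1 and Lats2. Triangles that point right mark GGAATG on the strand of the gene and triangles that point left mark the other strand; Ankrd1 and Ajuba hold 2 cores each, Nt5e and F3 none.

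Levels are FPKM (by name, fragments per kilobase of transcript and per 1000000 reads) as deposited, given with replicate 1 first and replicate 2 second. Their scale is not that of the reads recovered from the values alone. The library size implied by the value of 1 read was 0.516 times the recovered reads in undamaged replicate 2. It was 2.09 times in Hep-Org replicate 2, and all other libraries lay between. Ratios of levels between libraries depend on this scale. Differences are log2 differences of FPKM + 1 from limma, which understate the change of low genes, and a gene was called at a Benjamini-Hochberg adjusted p under 0.05 with an absolute log2 difference of at least 1. A recovered depth of 13.7 to 41.4 M reads per library (M, 1000000) stood behind the values, and 13162 genes were tested, the 10 members included. Some libraries stood apart. Xist was at 13.6 to 23.7 FPKM and Ddx3y listed at 0 in every library of 48 h, 72 h and 7 d (6 in all), while the other 10 PHx libraries had Xist at up to 0.137 and Ddx3y at 9.66 or more. Undamaged liver had Xist listed at 0 and Ddx3y at 15.4 and 10.9. The first pattern is that of female samples, the second that of male ones. Comparisons of 48 h, 72 h or 7 d with undamaged liver hold this split. So do the time course and both PHx references of Hep-Org. Hep-Org versus undamaged liver holds it in part, since Hep-Org replicate 2 had Xist at 25.3 FPKM and Ddx3y at 0.00756. The 6 Kupffer cell markers summed to 22.9 and 551 FPKM in the undamaged libraries, whose acute-phase gene Saa1 was at 19.9 and 20927, the latter the highest of all 20 libraries. The 5 erythroid markers summed to 7089 and 581 FPKM at 6 h. Mitochondrial transcripts took 20.9% and 40.7% of the reads at 6 h and 8.81% and 12.5% in undamaged liver. In Hep-Org the 6 hepatocyte markers summed to 4056 and 745 FPKM, against 20041 to 74482 in the 18 liver libraries, and the 6 biliary markers to 4444 and 2729 FPKM against 5.39 to 335. Nearly all of the biliary sum was Spp1, at 2695 to 4416 FPKM in Hep-Org, where the other 5 lay between 0.0607 for Cftr and 17.3 for Krt19. All 6 hepatocyte markers were called lower and all 5 biliary markers tested were called higher in Hep-Org than in undamaged liver. Of the hepatocyte markers, Cps1 and Cyp2e1 were at or near 0 in Hep-Org (up to 0.110 and 0.191 FPKM), which goes against the hepatocyte label. The other markers, Alb, Apoa1, Ttr and Hnf4a, together made up nearly all of the sums of 4056 and 745 FPKM. Their presence goes with the label, but each of them was called lower than in undamaged liver. Among them the hepatocyte transcription factor Hnf4a was at 37.9 to 43.5. The part of these marker differences in the levels of the members was not tested.

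Hep-Org carried the highest transcript levels of Yap1, Wwtr1, Ankrd1 and Ajuba of all 20 libraries, and high Tead1. What share of all tested genes also had both Hep-Org libraries above every liver library is not given here, for these or the genes below. Against undamaged liver, 4 of the 10 genes were called higher (Ankrd1, Ajuba, Tead1 and Wwtr1) and none lower, where 10.3% of all tested genes were called higher and 13.2% lower. The median of the 10 differences was 0.94 on the log2 scale, and that of all tested genes -0.03. Against PHx 24 to 72 h, 3 genes were called higher (Ankrd1, Ajuba and Tead1) and Nt5e was called lower, beside 10.2% and 13.3% of all genes. Against PHx 7 to 21 d the calls were again Ankrd1, Ajuba and Tead1 higher and Nt5e lower, beside 11.2% and 13.6% of all genes. These comparisons share the same 2 Hep-Org libraries. Between liver groups there were few calls: Tead1 and Ankrd1 at 6 h, and Nt5e at 48 h, 72 h and 7 d.

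**Figure D2:**
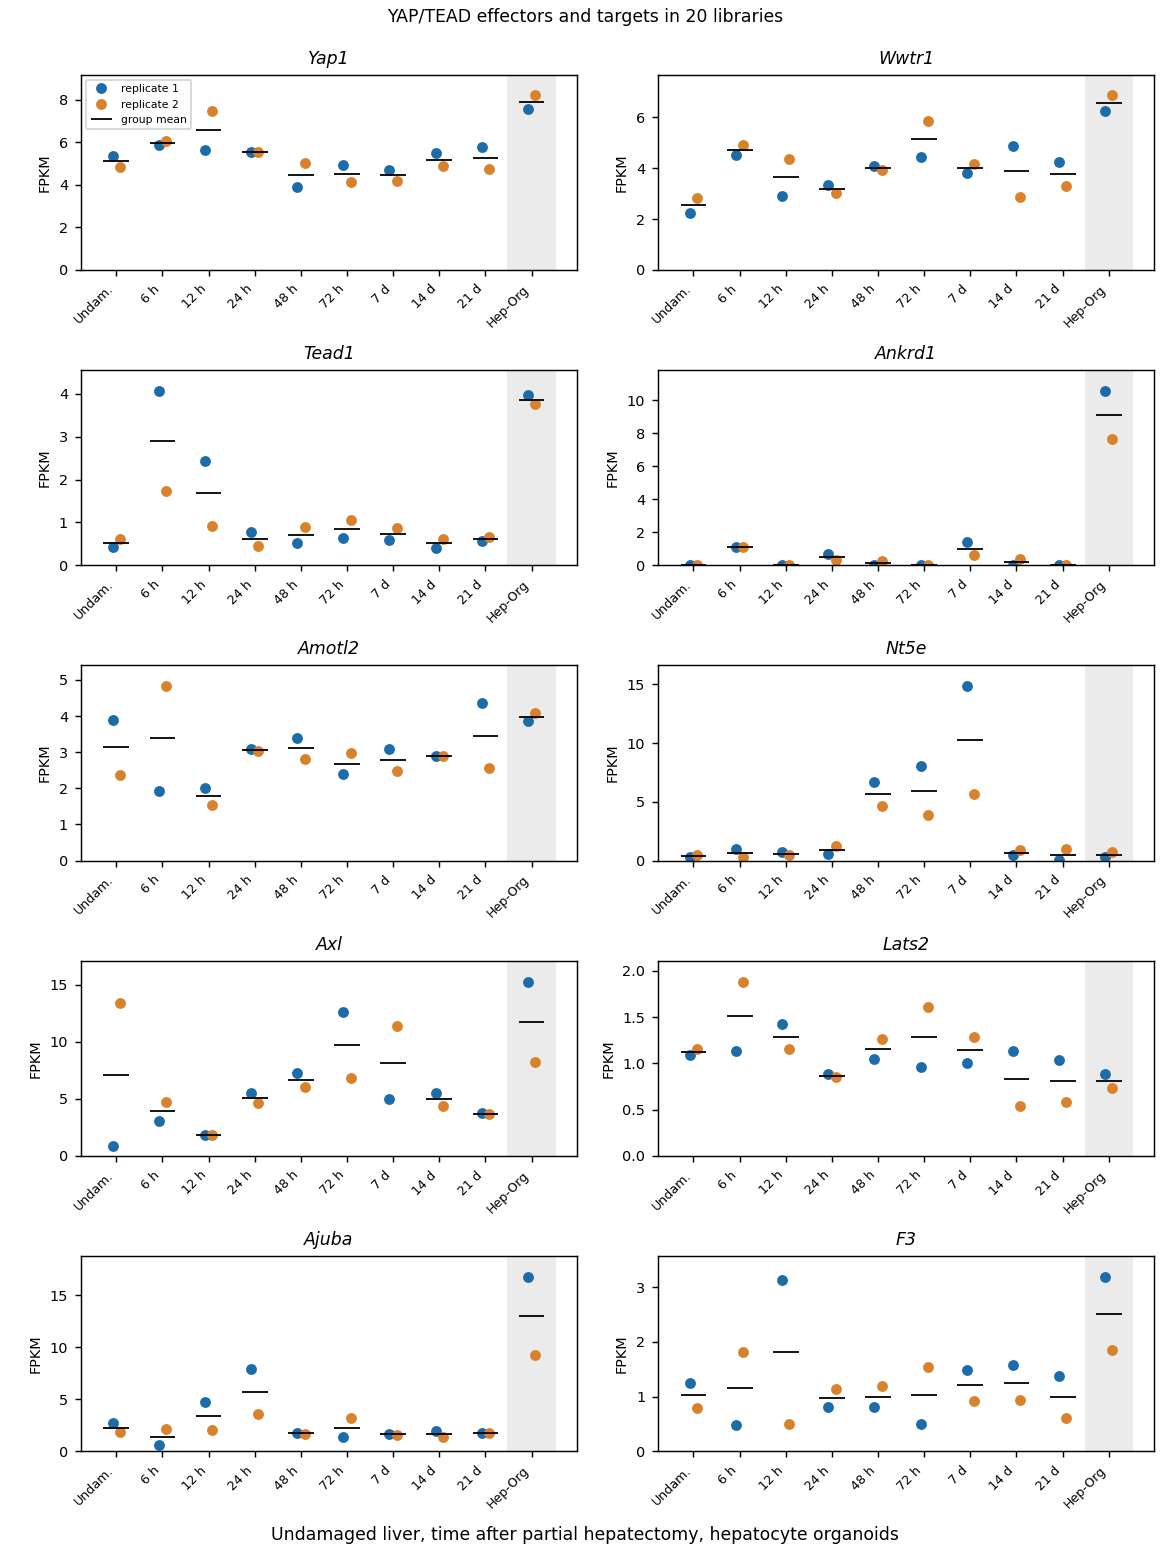
FPKM of the 10 genes in each library, with 1 panel per gene, groups in time order on the horizontal axis and Hep-Org on a grey ground; blue and orange points are replicates 1 and 2 and bars are means of 2. Ankrd1 and Ajuba are highest in both Hep-Org libraries, Tead1 is raised at 6 h and in Hep-Org, and Nt5e is raised at 48 h, 72 h and 7 d.

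Yap1 (ENSMUSG00000053110, chromosome 9, 7931999 to 8004596, GRCm38), the main co-activator restrained by Hippo kinases, varied little in liver. It was at 5.37 and 4.84 FPKM in undamaged liver, 5.87 and 6.06 at 6 h, 5.66 and 7.49 at 12 h, and 5.57 and 5.57 at 24 h. It was at 3.92 and 5.03 at 48 h, 4.92 and 4.12 at 72 h, 4.68 and 4.21 at 7 d, 5.49 and 4.87 at 14 d, and 5.77 and 4.73 at 21 d. The lowest of the 18 liver libraries was thus at 3.92 and the highest at 7.49, with a median of 5.20. In Hep-Org it was at 7.56 and 8.21 FPKM, above every liver library, 1.51 times the liver mean. The log2 difference was 0.54 (SE 0.195, limma adjusted p = 0.0532) against undamaged liver, 0.61 (SE 0.167, adjusted p = 0.0135) against 24 to 72 h and 0.58 (SE 0.167, adjusted p = 0.0165) against 7 to 21 d, under the size set for a call in each. In liver, differences between times did not pass the test (moderated F from limma 1.59, adjusted p = 0.453).

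Wwtr1 (ENSMUSG00000027803, chromosome 3, 57455649 to 57575910) encodes TAZ, the paralog of YAP. It was lowest in undamaged liver, at 2.24 and 2.85 FPKM, and stood at 4.54 and 4.92 at 6 h, 2.92 and 4.36 at 12 h, and 3.33 and 3.03 at 24 h. Later values were 4.08 and 3.95 at 48 h, 4.45 and 5.87 at 72 h, 3.82 and 4.17 at 7 d, 4.88 and 2.88 at 14 d, and 4.23 and 3.31 at 21 d. All 16 PHx libraries lay above both undamaged ones, an order whose share among all tested genes is not given here. No time passed the test, with 72 h at a log2 difference of 0.80 (SE 0.245, limma adjusted p = 0.117) and 6 h at 0.70 (SE 0.245, adjusted p = 0.0767). Hep-Org stood at 6.26 and 6.87 FPKM, above all 18 liver libraries, and was called higher than undamaged liver by 1.10 (SE 0.237, limma adjusted p = 0.00403). Without undamaged replicate 1 this difference was 0.97 (adjusted p = 0.0283), just under the size set for a call. Against 24 to 72 h and 7 to 21 d the differences were 0.58 and 0.64 (limma adjusted p = 0.0407 and 0.0256), also under that size. In liver Wwtr1 moved with the 8 stellate and fibroblast markers (Pearson r = 0.74 over 18 libraries, a description in libraries that share their cell mixture), whose part in its level was not tested. In bulk samples such as these, fewer cells of a type and less RNA per cell cannot be told apart.

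Tead1 (ENSMUSG00000055320, chromosome 7, 112679318 to 112906807), a TEAD factor through which YAP and TAZ reach DNA, was high at 6 h, at 12 h in 1 library, and in Hep-Org. Undamaged liver had 0.431 and 0.603 FPKM, 6 h had 4.07 and 1.73, and 12 h had 2.44 and 0.917. The 12 libraries from 24 h to 21 d lay between 0.403 and 1.06, with a median of 0.619, and those of undamaged liver fell within that range. Tead1 was called higher at 6 h by 1.35 (SE 0.319, limma adjusted p = 0.0189), 1 of 2 members called there, where 4.62% of all genes were called higher. It was also called at 6 h against 14 to 21 d, by 1.26 (SE 0.268, adjusted p = 0.00594), beside 8.33% of all genes. Both calls rest on 6 h replicate 1: without it the differences were 0.84 (adjusted p = 0.194) and 0.81 (adjusted p = 0.104). Without undamaged replicate 1 the first was 1.27 (adjusted p = 0.0772). That library also had the higher erythroid sum of the 6 h pair, and over the 18 liver libraries Tead1 followed the erythroid sum with Pearson r = 0.86, the neutrophil sum with 0.67 and the mesothelial sum with 0.66. All 5 erythroid markers were measured; the globins Hbb-bs and Hba-a1 were at 140 to 3059 and 356 to 3459 FPKM at 6 h and at most at 5.03 and 6.68 in undamaged liver. The other 2 globins were also higher at 6 h in both libraries, whereas the fifth marker, Alas2, was at 14.7 to 21.1 FPKM at 6 h and 19.7 to 38.9 in undamaged liver. The part of those cells, and of the mitochondrial share that also differed at 6 h, in the levels of Tead1 and Ankrd1 was not tested.

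In Hep-Org Tead1 was at 3.97 and 3.76 FPKM, above 17 of 18 liver libraries, the exception being 6 h replicate 1. The difference was 1.68 (SE 0.309, limma adjusted p = 0.00145) against undamaged liver, 1.46 (SE 0.264, adjusted p = 0.0011) against 24 to 72 h and 1.54 (SE 0.264, adjusted p = 6.66e-04) against 7 to 21 d. These calls held in all 25 alternatives. The globins Hbb-bs, Hbb-bt and Hba-a2 were listed at 0 in both Hep-Org libraries, and the erythroid sum was 0.143 to 0.301 FPKM.

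Ankrd1 (ENSMUSG00000024803, chromosome 19, 36111961 to 36120099) encodes an ankyrin repeat protein and is among the most used readouts of YAP activity. Hep-Org had 10.6 and 7.66 FPKM, while undamaged liver was listed at 0 in both libraries. In PHx liver Ankrd1 was at 1.08 and 1.08 FPKM at 6 h, 0.658 and 0.314 at 24 h, 0 and 0.227 at 48 h, 1.39 and 0.592 at 7 d, and 0 and 0.362 at 14 d. Both libraries of 12 h, 72 h and 21 d were listed at 0. In sum 10 of 18 liver libraries were listed at 0, and the other 8 rested on 10 to 83 recovered reads. If a listed 0 is a count of 0, the 3 reads that it allows correspond to 0.0332 to 0.0955 FPKM in those libraries, for counting error only. Of the 13162 tested genes 4, Ankrd1 included, were listed at 0 in at least 8 liver libraries and had at least 10 reads in all the others, with at least 5 of these. Whether a listed 0 is a count of 0 was not tested.

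The lowest Hep-Org library was at 5.51 times the highest liver library. Ankrd1 was called higher in Hep-Org by 3.32 (SE 0.249, limma adjusted p = 1.67e-06) against undamaged liver, 3.08 (SE 0.213, adjusted p = 6.47e-07) against 24 to 72 h and 2.92 (SE 0.213, adjusted p = 8.42e-07) against 7 to 21 d. The first of these is set against libraries listed at 0, so its size depends on the 1 FPKM added before taking logs, and the direction and the call held in all 25 alternatives for each comparison. At 6 h the difference from undamaged liver was 1.07 (SE 0.257, limma adjusted p = 0.0203), the second member called there. Without undamaged replicate 1, undamaged replicate 2 or 6 h replicate 1 the adjusted p was 0.0663, 0.051 and 0.102. Over the 8 times Ankrd1 differed (F 6.17, limma adjusted p = 0.0371), with the highest fitted mean at 6 h, and 9.51% of all genes did so. That call was lost in 16 of 26 alternatives.

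Ajuba (ENSMUSG00000022178, chromosome 14, 54567472 to 54577558) encodes a LIM protein of cell junctions that binds and restrains LATS kinases. Hep-Org had 16.8 and 9.28 FPKM, above every liver library. Undamaged liver had 2.72 and 1.87 FPKM, 6 h 0.633 and 2.14, 12 h 4.75 and 2.02, and 24 h 7.91 and 3.57. Both 24 h libraries lay above the undamaged ones, but the difference there, 1.01 (SE 0.455, limma adjusted p = 0.467), did not pass the test. From 48 h to 21 d the libraries lay between 1.33 and 3.25 FPKM. Ajuba was called higher in Hep-Org by 2.05 (SE 0.441, limma adjusted p = 0.0040) against undamaged liver, 1.79 (SE 0.377, adjusted p = 0.00297) against 24 to 72 h and 2.30 (SE 0.377, adjusted p = 4.9e-04) against 7 to 21 d. Without Hep-Org replicate 1 the first 2 were 1.66 (adjusted p = 0.0558) and 1.40 (adjusted p = 0.0685).

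**Figure D3:**
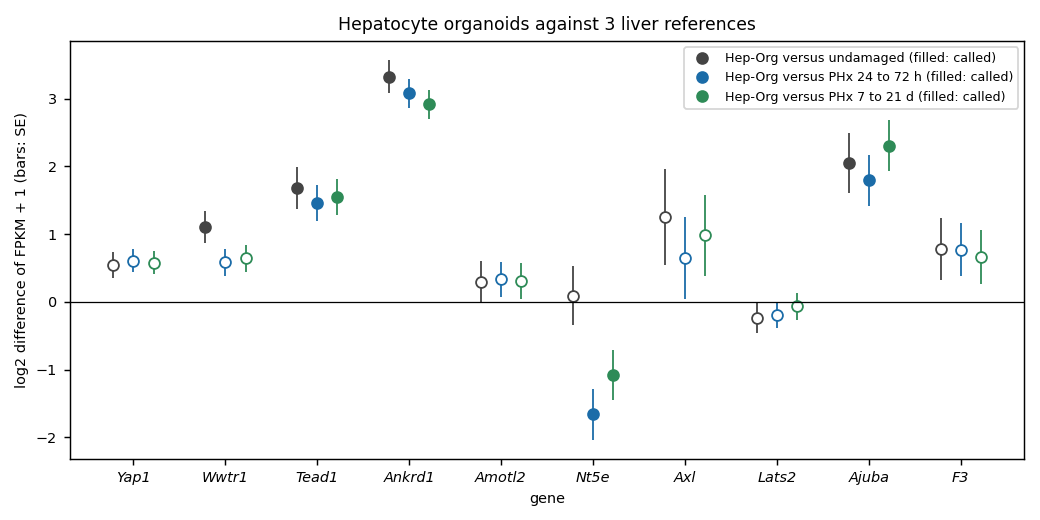
Log2 differences of FPKM + 1 (vertical axis, bars are SE) for the 10 genes (horizontal axis) in Hep-Org against undamaged liver, PHx 24 to 72 h and PHx 7 to 21 d; filled points passed both thresholds. Ankrd1, Ajuba and Tead1 are filled and above 0 against all 3 references, Wwtr1 against undamaged liver alone, and Nt5e is filled and below 0 against both PHx windows.

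Nt5e (ENSMUSG00000032420, chromosome 9, 88327197 to 88372092) encodes CD73, a surface enzyme that makes adenosine from AMP. Its levels split the liver libraries into 2 sets that do not overlap. The share of all tested genes that split the same libraries in this way is not given here. Nt5e was at 6.73 and 4.66 FPKM at 48 h, 8.02 and 3.86 at 72 h, and 14.8 and 5.70 at 7 d. Undamaged liver had 0.306 and 0.481 FPKM, and the other 10 PHx libraries lay between 0.071 and 1.28. Nt5e was called higher by 2.35 (SE 0.448, limma adjusted p = 0.0469) at 48 h, where 0.144% of all genes were called higher, by 2.35 (SE 0.448, adjusted p = 0.0369) at 72 h, beside 0.365%, and by 2.99 (SE 0.448, adjusted p = 0.0104) at 7 d, beside 0.236%. The 48 h and 72 h calls were lost in 18 and 13 of 25 alternatives, with adjusted p up to 0.317 and 0.232. The 7 d value was 2.32 (adjusted p = 0.123) without 7 d replicate 1 and 2.90 (adjusted p = 0.0582) without undamaged replicate 1.

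Nt5e also differed over the 8 times (F 14.7, limma adjusted p = 0.00374), with a range of 2.83 between the highest and the lowest fitted mean. The 6 libraries with high Nt5e are the same 6 that carried Xist and had Ddx3y listed at 0, so time after PHx and that split cannot be told apart. Without 48 h, 72 h and 7 d the range was 0.39 (adjusted p = 0.94). In Hep-Org Nt5e was at 0.269 FPKM in replicate 1, where Xist was near 0, and at 0.728 in replicate 2, where Xist was at 25.3 FPKM. It was called lower in Hep-Org than at 24 to 72 h, by -1.66 (SE 0.371, limma adjusted p = 0.0043), and than at 7 to 21 d, by -1.08 (SE 0.371, adjusted p = 0.0371). The Hep-Org libraries overlapped with both windows: 24 h had 0.572 and 1.28 FPKM, 14 d 0.434 and 0.922, and 21 d 0.071 and 0.956, whereas the libraries of 48 h, 72 h and 7 d were at 3.86 to 14.8. The first was -1.44 (adjusted p = 0.0696) without Hep-Org replicate 1, and the second was lost in 12 of 25 alternatives.

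Axl (ENSMUSG00000002602, chromosome 7, 25757273 to 25788705) encodes a receptor tyrosine kinase that is also a known gene of macrophages. The undamaged libraries were its extremes in liver, at 0.833 and 13.4 FPKM. It was at 3.09 and 4.73 at 6 h, 1.81 and 1.85 at 12 h, 5.51 and 4.60 at 24 h, 7.26 and 6.03 at 48 h, and 12.6 and 6.83 at 72 h. At 7 d it was at 4.98 and 11.3 FPKM, at 14 d at 5.56 and 4.35, and at 21 d at 3.77 and 3.63. Hep-Org had 15.3 and 8.23 FPKM, above 15 of 18 liver libraries in both, and the difference from undamaged liver was 1.26 (SE 0.705, limma adjusted p = 0.199). It was -0.23 without undamaged replicate 1 and 2.74 (adjusted p = 0.00166) without undamaged replicate 2. Over the 18 liver libraries Axl followed the summed Kupffer cell markers with Pearson r = 0.92. In Hep-Org the Kupffer cell sum was 2.54 FPKM or less, the higher sum in replicate 1, which also had the higher Axl. Marco was at 1.51 FPKM in that replicate, Adgre1 was the next highest marker in it, and Vsig4 and Timd4 were listed at 0 in both libraries. The part of those cells in the level of Axl was not tested, in liver or in Hep-Org.

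**Figure D4:**
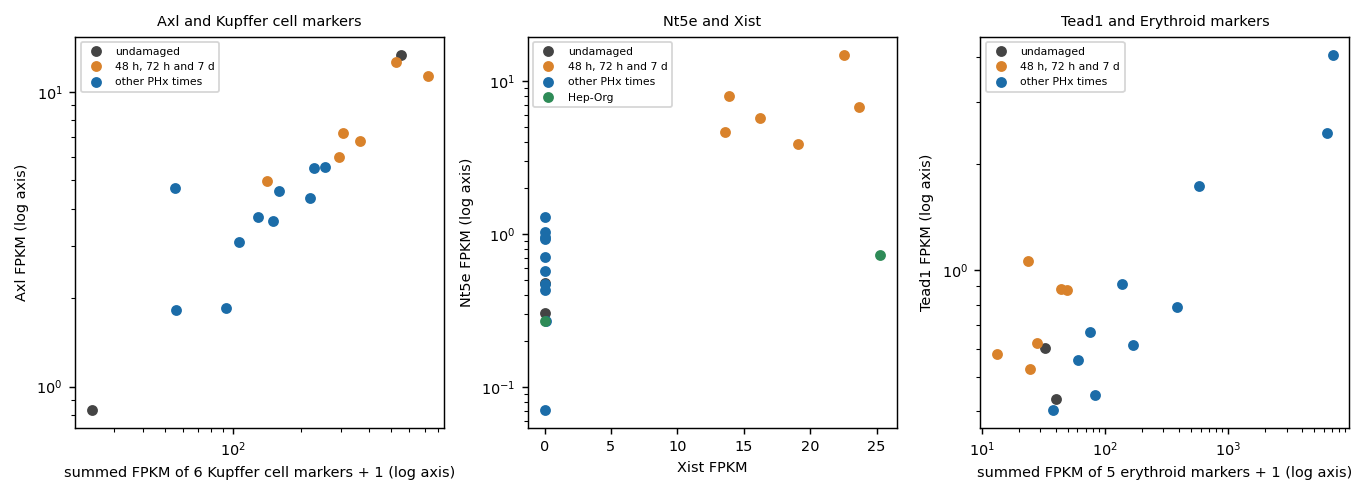
Each point is 1 library: Axl against the summed FPKM of 6 Kupffer cell markers, Nt5e against Xist, and Tead1 against the summed FPKM of 5 erythroid markers, with log axes for the 3 genes and both sums. Axl rises with the Kupffer cell sum, the libraries of 48 h, 72 h and 7 d (orange, 6 points) hold both Nt5e and Xist, 1 Hep-Org library has Xist at 25.3 and Nt5e at 0.728, and the 3 highest Tead1 values in liver are at 6 h and 12 h. The panels of Axl and Tead1 show the 18 liver libraries, that of Nt5e all 20.

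Amotl2, F3 and Lats2 were not called in any comparison. Amotl2 (ENSMUSG00000032531, chromosome 9, 102716672 to 102733418), an angiomotin that binds YAP in the cytoplasm and is itself a YAP target, was at 3.90 and 2.38 FPKM in undamaged liver and 3.86 and 4.09 in Hep-Org. Its liver libraries ran from 1.55 at 12 h to 4.83 at 6 h, with a median of 2.91, and both 6 h libraries lay far apart, at 1.93 and 4.83. Hep-Org overlapped with undamaged liver (0.29, SE 0.307, limma adjusted p = 0.508).

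F3 (ENSMUSG00000028128, chromosome 3, 121723537 to 121735048) encodes tissue factor, the receptor that starts blood clotting. It was at 1.25 and 0.80 FPKM in undamaged liver and 3.19 and 1.85 in Hep-Org, above 17 of 18 liver libraries, with 12 h replicate 1 at 3.13 as the exception. The other 12 h library was at 0.494, the widest gap between replicates for this gene. The Hep-Org difference from undamaged liver was 0.78 (SE 0.460, limma adjusted p = 0.222).

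Lats2 (ENSMUSG00000021959, chromosome 14, 57689662 to 57758388) encodes a kinase that phosphorylates YAP and is induced by it as a feedback. It stood at 1.09 and 1.16 FPKM in undamaged liver, 1.13 and 1.89 at 6 h, and 0.890 and 0.735 in Hep-Org. Its range in liver was 0.541 to 1.89 FPKM with a median of 1.11, and Hep-Org lay below both undamaged libraries (-0.23, SE 0.230, limma adjusted p = 0.478). Lats2 shares 2955 exon bases with the gene model Gm49361, which was listed at 0 in every library, so its level may depend on how shared reads were counted.

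At 12, 24 and 48 h, 72 h and 7, 14 and 21 d the members other than Nt5e were not called against undamaged liver. No gene at all was called at 24 h, 14 d or 21 d by limma (0% of those tested), where 1380, 1014 and 1000 genes had an unadjusted p under 0.05. At 12 h none of the 10 was called, where 3.08% of all genes were. The PHx comparisons with undamaged liver share the same 2 undamaged libraries.

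The 10 genes did not move as a block across liver. Over the 18 liver libraries the 45 pairs had a median Pearson r of 0.05 on log2(FPKM + 1). The highest was Nt5e with Axl at 0.50, and the lowest were Yap1 with Nt5e at -0.65 and Yap1 with Axl at -0.58. These points share libraries, depth and cell mixture and are given as a description. The genes whose pattern over the 18 liver libraries was nearest to Yap1 were Wipi2 (r = 0.91), Vps53 (0.91) and Hars (0.91). For Wwtr1 they were Dr1 (0.85), Fam102b (0.85) and Abcc9 (0.83), and for Ankrd1, Epcam (0.73), the pseudogene Gm14863 (0.72) and Pip5k1b (0.72). The correlations of ranks (Spearman) with Ankrd1 were 0.56 for Epcam, 0.54 for Gm14863 and 0.72 for Pip5k1b. Mean levels in liver were low, at 0.296 FPKM for Epcam, 0.349 for Gm14863 and 0.0297 for Pip5k1b. Ankrd1 itself was listed at 0 in 10 of the 18 liver libraries. The r values for Ankrd1 thus rest on low levels and do not show that it followed these genes in liver.

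Of the other TEAD genes and YAP/TAZ binding proteins, 2 of 8 tested (9 listed) were called higher in Hep-Org than in undamaged liver and none lower, with a list median of 0.46, beside 10.3% and 13.2% of all genes. Tead2 was at 0.0917 and 0.096 FPKM in undamaged liver and 6.11 and 3.99 in Hep-Org, a log2 difference of 2.44 (SE 0.210, limma adjusted p = 4.99e-06). Tead4 was at 0.0271 and 0.306 in undamaged liver and 2.09 and 1.01 in Hep-Org, a difference of 1.11 (SE 0.240, adjusted p = 0.00418). Both lay above all 18 liver libraries. They passed the filter for testing (at least 1 FPKM in at least 2 libraries) only through the 2 Hep-Org libraries. Their place, their calls and the list median thus partly follow from that filter. Tead3 was at 1.41 and 0.698 FPKM in undamaged liver and 1.29 and 1.45 in Hep-Org, with no call (0.23, SE 0.243, adjusted p = 0.510). Tead4 was under the size set for a call, at 0.93, without undamaged replicate 1.

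Of 14 Hippo kinases and upstream regulators, 2 were called higher in Hep-Org, a share near the 10.3% of all genes, and none lower. The list median was 0.32. Map4k4, a kinase that acts on LATS beside the MST kinases, was at 0.372 and 1.36 FPKM in undamaged liver and 15.5 and 11.5 in Hep-Org (2.996, SE 0.352, limma adjusted p = 5.49e-05). Frmd6, a FERM protein related to an upstream activator of the pathway in flies, was at 0.519 and 0.748 and at 4.79 and 3.98 (1.72, SE 0.183, adjusted p = 2.51e-05). The kinase Lats1 was not called (0.14, SE 0.169, adjusted p = 0.576), and neither was Stk4, which encodes an MST kinase (0.61, SE 0.278, adjusted p = 0.115). Over the 8 times 1 of the 14 differed, near the 9.51% of all genes: Taok2, a kinase upstream of MST, had its highest levels at 12 h, at 7.32 and 5.32 FPKM (F 6.07, limma adjusted p = 0.0387), a call lost in 19 of 26 alternatives.

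Of 16 other YAP/TEAD target genes, 12 were tested, and 4 were called higher in Hep-Org than in undamaged liver and none lower, with a list median of 1.13, beside 10.3% and 13.2% of all genes. Igfbp3, which encodes an IGF binding protein, was at 0.218 and 2.11 FPKM in undamaged liver and 193 and 23.1 in Hep-Org (5.13, SE 0.728, limma adjusted p = 2.43e-04). Myof, the membrane repair protein myoferlin, was at 0.0194 and 0.437 and at 14.0 and 8.41 (3.29, SE 0.246, adjusted p = 1.59e-06). Arhgef17 and Ptpn14, a phosphatase that binds YAP, were higher by 2.45 (SE 0.290, adjusted p = 5.61e-05) and 2.18 (SE 0.299, adjusted p = 1.85e-04). Myof, Arhgef17 and Ptpn14 passed the filter for testing only through the 2 Hep-Org libraries, so the count and the list median partly follow from it.

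Ccn2 and Ccn1, the matrix proteins CTGF and CYR61 and both much used YAP targets, were not called in that comparison. Ccn2 was at 0.153 and 2.38 FPKM in undamaged liver and 7.02 and 2.62 in Hep-Org (1.45, SE 0.534, limma adjusted p = 0.0579), and Ccn1 at 4.35 and 4.82 and at 18.7 and 8.27 (1.27, SE 0.774, adjusted p = 0.234). Ccn2 was called higher in Hep-Org than at 24 to 72 h (1.79, adjusted p = 0.00923) and 7 to 21 d (1.81, adjusted p = 0.00809). In PHx liver Ccn2 was at 4.84 and 3.25 FPKM at 6 h and 4.27 and 6.99 at 12 h, above all 12 later libraries, which had 1.51 or less. It differed over the 8 times (F 5.54, limma adjusted p = 0.0485), the only one of the 12 to do so, in a call lost in 20 of 26 alternatives. Ccdc80, a matrix protein gene, was lower in Hep-Org than in both windows, by -2.08 (adjusted p = 0.00145) and -1.91 (adjusted p = 0.00233). No gene of the 3 lists was called at 6 h against undamaged liver, and 3 were called higher at 6 h than at 14 to 21 d, a share near the 8.33% of all genes: Ccn2 (1.69, limma adjusted p = 0.0198), Map4k4 (1.28, adjusted p = 0.0105) and the stress gene Gadd45a (1.19, adjusted p = 0.0414). The 8 genes called against undamaged liver in Hep-Org were also called higher there than at 24 to 72 h and at 7 to 21 d, comparisons that share the Hep-Org libraries. Of these genes, Tead2, Tead4, Myof, Arhgef17 and Ptpn14 passed the filter for testing through Hep-Org alone.

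**Figure D5:**
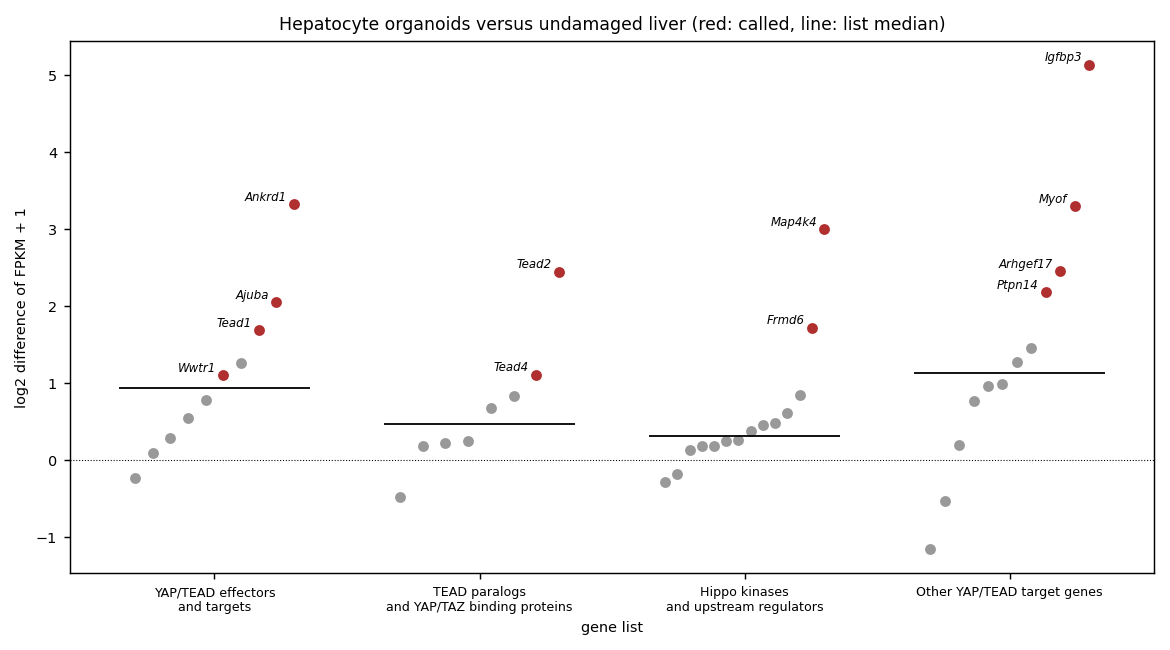
Log2 differences of FPKM + 1 between Hep-Org and undamaged liver (vertical axis) for the tested genes of the 10 members and 3 further lists (horizontal axis), with 1 point per gene ordered by value, called genes in red and a line at each list median. The medians are 0.94, 0.46, 0.32 and 1.13, from left to right. Tead2, Tead4, Myof, Arhgef17 and Ptpn14 passed the filter for testing through Hep-Org alone.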

How the data were processed

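The values used are FPKM per gene and library, as deposited by the authors in 1 table of the whole series; the submitters' processing notes name HISAT2 2.0.5 and the build mm10. How reads were counted, on which annotation and with what strand setting is not given in the sources used here. Symbols, positions and exon lengths came from GENCODE M21 (GRCm38), with 54495 rows matched. The column of undamaged replicate 1 is spelled unlike its sample and was matched by elimination. Read numbers were recovered as FPKM times exon length over the value of 1 read in a library; of the values up to 20 reads, 97.9% to 98.7% came out whole within 0.05 reads.

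Genes with at least 1 FPKM in at least 2 libraries were tested on log2(FPKM + 1) with limma 3.58.1 in R 4.3.3: 1 mean per group over all 20 libraries, a term for submission (the second of each PHx pair, 8 libraries, taken as the later submission), and variances moderated with the options trend and robust (residual degrees of freedom 9, prior 3.29). P-values were adjusted by Benjamini-Hochberg over all genes tested within a comparison, and the time course was the moderated F test over 8 times, called where the fitted means also spanned at least 1. As a check for pairing, replicate differences of the 28 possible pairs of times were correlated, with r from -0.381 to 0.472 (median -0.115), with 4 over 0.1. These values gave no basis for a pairing by replicate number. The term for submission was kept all the same, and for the PHx times it acts as a replicate block. Hep-Org was compared with undamaged liver, PHx 24 to 72 h and PHx 7 to 21 d, each PHx time with undamaged liver, and 6 h with 14 to 21 d.

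All 10 members are described, and from 3 other pathway lists (39 genes) each gene called in Hep-Org against undamaged liver or in the time course; similar genes were the 3 highest Pearson correlations over 18 liver libraries for Yap1, Wwtr1 and Ankrd1. Xist, Ddx3y, Saa1, Tead3, Lats1, Stk4, Ccn1, Ccdc80, Gadd45a and the single marker genes named were picked after their values were seen. The members and lists were chosen with earlier results of these data known. Alternatives were an added 0.1 in place of 1, no filter, rescaling to a sum of 1000000, voom on the recovered reads, no replicate block, leaving out each library, and, chosen after seeing the data, leaving out 48 h, 72 h and 7 d. The voom fit used the library sizes implied by the deposited values, so it kept their scale and does not check it. Scripts were tested on simulated data and used Python 3.11.15, numpy 2.4.6, pandas 2.3.3 and matplotlib 3.10.9.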

Additional observations from a re-analysis of the deposited data

Results flagged for a closer look

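Over the 8 PHx times, 4 of the genes described differed by limma's moderated F test, beside 9.51% of all genes. By list, these were 2 of 10 members, 1 of 14 Hippo kinases and upstream regulators and 1 of 12 other YAP/TEAD target genes tested. Of the other TEAD genes and YAP/TAZ binding proteins, 0 of 8 tested differed. Taok2 and Ccn2 were described because this test called them, so the count of 4 partly follows from that choice. Nt5e had F 14.7, with its high values at 48 h, 72 h and 7 d, the times that also carried Xist and cannot be told apart from it. Ankrd1 had F 6.17, with its highest mean at 6 h. Taok2 had F 6.07 and Ccn2 F 5.54, both with the highest mean at 12 h. The calls of Ankrd1, Taok2 and Ccn2 were lost in 16, 19 and 20 of 26 alternatives.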

How the results depend on the processing

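With 2 libraries per group, leaving out 1 library leaves a lone sample that is assumed to vary like the others, and low read numbers limit several members in liver (from 0 reads for Ankrd1, 15 for Nt5e, 22 for F3, 45 for Ajuba and 58 for Lats2). With each library left out in turn, the members called in Hep-Org ranged from 3 to 5 (undamaged reference), 2 to 4 (24 to 72 h) and 3 to 4 (7 to 21 d). They ranged from 0 to 2 at 6 h against either reference, 0 to 1 at 12 h, 48 h, 72 h and 7 d, 0 to 0 at 24 h, 14 d and 21 d, and 1 to 2 in the time course. Without the filter 1 member was called at 6 h, 0 at 48 h, 72 h and 7 d and 1 in the time course. With 0.1 added in place of 1, and with voom on the recovered reads, 0 were called at 48 h, 72 h and 7 d and 2 at 6 h against 14 to 21 d. Without 48 h, 72 h and 7 d the time course had 0. The cause was not tested, except that a fit without the filter adjusts over more genes.

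Rescaling each library to the same sum moved the median of all genes for Hep-Org to 1.54 (undamaged reference), 1.26 (24 to 72 h) and 1.05 (7 to 21 d), and from 0.08 to 0.56 for PHx times against undamaged liver. The members called were then 9, 8 and 8 for Hep-Org, 0 at 6 h and 48 h, and 1 in the time course. All genes called higher and lower in Hep-Org against undamaged liver went from 1352 and 1743 to 7700 and 813, of 13162 tested. After rescaling they were 7169 and 1151 against 24 to 72 h, and 6243 and 1321 against 7 to 21 d. At 6 h they were 158 and 265, at 48 h 13 and 14, and 769 genes differed in the time course. Relative to the shift of the median against undamaged liver, Ankrd1 was at 4.17, Ajuba 2.49, Tead1 2.17, Axl 1.81 and Wwtr1 1.48. On that scale F3 was at 0.99, Yap1 0.88, Amotl2 0.53, Nt5e -0.33 and Lats2 -0.48. The Hep-Org difference from undamaged liver turned to 1.06 for Lats2 after rescaling (-0.48 relative to the shift), to -0.13 for Nt5e without Hep-Org replicate 2, and to -0.23 for Axl without undamaged replicate 1. With each library left out in turn it ranged from -0.13 to 0.31 for Nt5e and from -0.23 to 2.74 for Axl.

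With no replicate block (no term for submission) the members called were 4, 4 and 3 for Hep-Org, and 2 at 6 h. All genes called higher were then 1393, 1412 and 1535 for Hep-Org and 707 at 6 h. Those called lower were 1817, 1848 and 1861 for Hep-Org and 1050 at 6 h. The block changed 1 named call, Nt5e against 7 to 21 d, which was -0.98 (limma adjusted p = 0.0387) without it. All genes called higher and lower at 12 h were 123 and 283 with the block and 225 and 507 without it, 0 and 0 against 9 and 21 at 24 h, 19 and 35 against 30 and 61 at 48 h, and 48 and 69 against 152 and 273 at 72 h.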
